A study of Mus musculus with 16 samples.

Results

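The Dppa genes (developmental pluripotency associated) were followed in mouse embryonic stem (ES) cells before and during exit from naive pluripotency. The members were the 4 rows of the deposited count table with the symbols Dppa2 (Entrez 73703), Dppa3 (73708), Dppa4 (73693) and Dppa5a (434423), out of 27179 genes. All 4 were among the 14288 genes with enough counts to be tested. The only other row whose symbol starts with Dppa, Dppa1, had 2 and 3 counts in the libraries of serum/LIF+2i at 0 h and 0 counts in every other library. With so few counts it was not tested.

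The series holds 16 RNA-seq libraries of ES cells in 8 groups of 2. The groups combine 2 maintenance media with 4 times of collection, and the series' title concerns amino acid uptake in different pluripotent states. Cells in 2i/LIF were kept without serum, on DMEM/F-12 and Neurobasal with N-2 and B-27. Cells in serum/LIF+2i were kept in knockout DMEM with 10% serum. Both media held 1000 U/ml LIF (leukaemia inhibitory factor) and 2i, which is 3 uM CHIR99021, an inhibitor of GSK3, with 1 uM PD0325901, an inhibitor of MEK. Both cultures came from serum/LIF, were adapted for 3 passages and were used up to passage 9, so all groups share this history. At 0 h the cells were still in maintenance medium, and at 12, 24 and 40 h they had been in serum-free medium without 2i and LIF. Cells from serum/LIF+2i exited in a mix made with glutamine-free DMEM and 2 mM glutamine. The base medium of the exit thus differed between the arms as well as the medium before it. All 8 groups are listed with 2 mM glutamine. The labels name neither a strain, a clone nor a genotype. They do not say whether the 2 libraries of a group came from separate cultures. The p-values thus measure only the spread between these libraries, estimated for each gene with information shared across genes.

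The members share a name and an expression in early embryos and germ cells, not a sequence family. Dppa2 and Dppa4 are related nuclear proteins with a SAP domain, which bind DNA as a heterodimer, keep CpG-rich promoters of developmental genes from gaining DNA methylation, and can activate genes of the 2-cell embryo such as Dux and Zscan4. Dppa3, also called Stella or PGC7, is a maternal and germ cell protein that binds Uhrf1 and holds back the copying of DNA methylation. Dppa5a, also called Esg1, is a small RNA-binding protein with a KH-like domain and a long-used marker of mouse ES cells.

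The starts of the coding sequences identify the transcripts meant here and show that the members do not begin alike. They are the first 60 coding bases of GENCODE M21 transcripts, 5′ to 3′, with the start codon in capitals.
Dppa2: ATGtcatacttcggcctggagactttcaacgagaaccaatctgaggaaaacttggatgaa
Dppa4: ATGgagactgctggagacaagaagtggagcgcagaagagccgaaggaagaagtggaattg
Dppa3: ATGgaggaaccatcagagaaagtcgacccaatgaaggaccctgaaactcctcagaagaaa
Dppa5a: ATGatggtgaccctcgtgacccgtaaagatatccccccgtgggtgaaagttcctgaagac

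In the RefSeq annotation of GRCm38.p6, Dppa4 (chr16:48283735-48294292) and Dppa2 (chr16:48310274-48319513) lie 15.98 kb apart on the plus strand, and each GENCODE transcript has 7 exons. Dppa3 lies at chr6:122626424-122630271 on the plus strand with 4 exons, and Dppa5a at chr9:78367052-78368199 on the minus strand with 3 exons. In that annotation 0 genes overlap any of these spans. The coding sequence runs to 903 bases in Dppa2, 888 in Dppa4, 450 in Dppa3 and 354 in Dppa5a. No stretch of 20 bases was shared between the coding sequences of Dppa2 and Dppa4 (0 of 884 windows), so their reads can be told apart.

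Dppa5a and Dppa3 have near-identical copies elsewhere in the genome. The windows below are the 60 coding bases in which the member differs most from its copies, counted from the A of the start codon, with capitals at the positions that differ. The Dppa5a window covers bases 194 to 253, and both copies differ from it at 5 positions.
Dppa5a: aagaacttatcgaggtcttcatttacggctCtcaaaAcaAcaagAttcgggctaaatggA
Dppa5b: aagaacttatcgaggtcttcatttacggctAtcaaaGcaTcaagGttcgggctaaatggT
Dppa5c: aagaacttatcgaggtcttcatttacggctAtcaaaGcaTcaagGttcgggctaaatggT
The Dppa3 window covers bases 118 to 177, and the processed copy Dppa3-ps differs at 3 positions.
Dppa3: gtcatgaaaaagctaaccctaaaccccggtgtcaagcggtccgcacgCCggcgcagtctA
Dppa3-ps: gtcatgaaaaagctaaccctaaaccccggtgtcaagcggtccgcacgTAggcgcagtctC

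Over the aligned bases, Dppa5b and Dppa5c were each 94.6% identical to Dppa5a, with 18 mismatches in 333 bases, and Dppa3-ps was 98.2% identical to Dppa3, with 8 mismatches in 448 bases. Of the 50-base windows of the coding sequence, 18.7% in Dppa5a and 32.9% in Dppa3 also occur in a copy, which falls to 2.0% and 0% for 100-base windows. None of the 3 copies is a row of the count table. How reads that fit a copy equally well were counted is not given in the sources used here, so the levels of Dppa5a and Dppa3 are less certain than those of Dppa2 and Dppa4.

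Total counts ran from 5931381 to 11142744 per library, and log2 values of replicates correlated at 0.997 to 0.998 across genes. The pluripotency marker Pou5f1, which encodes Oct4, was at 641 ± 0.0426 CPM (counts scaled to a library's total after adjustment by trimmed mean of M values, SD, n = 2) in 2i/LIF at 0 h, and its 40 h exit effect was not called in either medium. Of the markers of other cell types, summed CPM per library ran from 2.94 to 16.7 over 7 primitive endoderm genes, from 3.65 to 22.2 over 6 trophoblast genes, from 4.41 to 23.5 over 7 fibroblast genes and from 2.76 to 40.0 over 6 mesendoderm genes. The 6 neural ectoderm markers summed to 48.1 to 48.8 CPM in 2i/LIF and 28.6 to 31.6 in serum/LIF+2i before exit, and to 86.9 to 94.6 and 123 to 124 CPM at 40 h, mostly Tubb3 and Sox1. The span of Sox1 overlaps another counted gene. In each of these lists, 0 genes were at 0 in all 16 libraries. The part of these cells in the results below was not tested, and in bulk RNA fewer cells of a type cannot be told apart from less RNA per cell.

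Levels between genes were compared as CPM per kb of the deposited gene length. Dppa5a was the most abundant member in every group, at 1117 ± 16.2 to 2869 ± 39.2 CPM per kb (SD, n = 2), and ranked between the seventh and the twenty-first of 14288 genes. Its counts were 79.1% to 93.9% of all member counts in a library, and the 4 members together took 0.0926% to 0.211% of a library. In 2i/LIF at 0 h, Dppa3 followed at 93.3 ± 9.55 CPM per kb, ahead of Dppa4 at 31.6 ± 0.435 and Dppa2 at 21.2 ± 0.0641. The same order held in serum/LIF+2i at 0 h, with Dppa3 at 45.0 ± 0.138, Dppa4 at 34.4 ± 3.53 and Dppa2 at 13.6 ± 0.371 CPM per kb. From 12 h on, Dppa4 was the second member in both media, Dppa2 the next and Dppa3 the lowest, down to 3.39 ± 0.747 CPM per kb in serum/LIF+2i at 24 h.

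**Figure D1:**
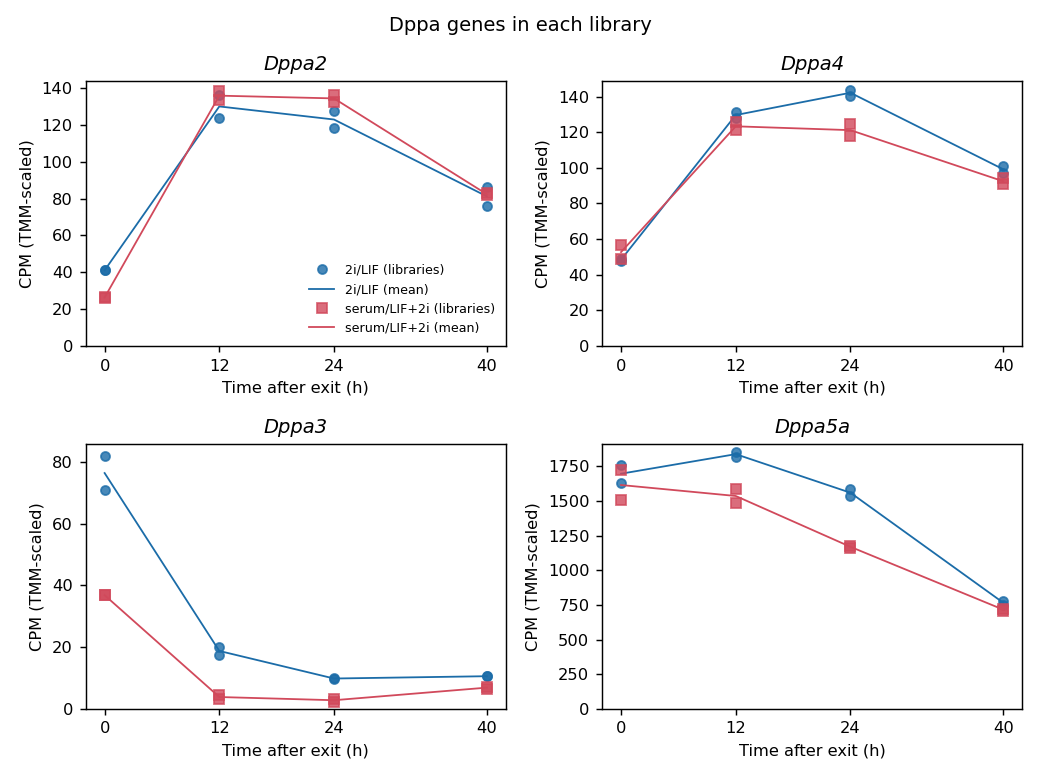
CPM of each Dppa gene in every library against time after exit (h), with points for libraries and lines for means of the 2 libraries, in blue for 2i/LIF and red for serum/LIF+2i. Dppa2 and Dppa4 peak at 12 or 24 h, Dppa3 is highest at 0 h, and Dppa5a is lowest at 40 h.

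Differences were tested with edgeR's quasi-likelihood test, a two-sided test, p-values were adjusted over the 14288 genes by Benjamini-Hochberg, and an adjusted p under 0.05 made a call. Fold changes are log2 values with their SE. The exit effect is a later time against 0 h in the same medium, and the exit effects of a medium share their 0 h libraries. Many genes passed the threshold: 44.7% after 12 h of exit from 2i/LIF, then 58.8% after 24 h and 68.8% after 40 h, and 51.2%, 64.4% and 70.5% in serum/LIF+2i. Against that background, all 4 members were called at 12, 24 and 40 h in 2i/LIF, 3 at 12 h in serum/LIF+2i, and all 4 at 24 and 40 h there. The median over all genes was within 0.01 of 0 in each.

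Dppa2 and Dppa4 rose at exit in both media. Dppa2 had 41.2 and 41.0 CPM in the 2i/LIF libraries at 0 h, 136 and 124 at 12 h, 127 and 118 at 24 h, and 86.2 and 76.2 at 40 h. The serum/LIF+2i libraries had 25.9 and 26.9 CPM at 0 h, 134 and 138 at 12 h, 136 and 133 at 24 h, and 82.8 and 81.9 at 40 h. All libraries of the later times lay above those of 0 h in both media, and those of 40 h lay between 0 h and the earlier peak. Here and for the other members, the share of all genes with such an order was not counted.

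The rise of Dppa2 in 2i/LIF was 1.66 ± 0.07 at 12 h (3.16-fold, edgeR adjusted p = 3e-43), 1.58 ± 0.07 at 24 h and 0.98 ± 0.08 at 40 h (1.98-fold, 9.62e-23). From serum/LIF+2i it was 2.37 ± 0.08 at 12 h (5.16-fold, edgeR adjusted p = 2.41e-56), 2.35 ± 0.08 at 24 h and 1.64 ± 0.08 at 40 h (3.12-fold, 2.07e-39). By size, the 12 h rise was the 580th highest of 14288 genes in 2i/LIF and the 433rd highest in serum/LIF+2i.

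Dppa4, the partner of Dppa2, had 48.9 and 48.0 CPM in 2i/LIF before exit, 131 and 128 at 12 h, 140 and 144 at 24 h, and 101 and 97.3 at 40 h. The serum/LIF+2i libraries had 56.6 and 48.9 CPM at 0 h, 121 and 126 at 12 h, 118 and 125 at 24 h, and 90.8 and 94.1 at 40 h. The 0 h libraries were again the lowest in each medium, and the highest libraries of all were those of 2i/LIF at 24 h.

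In 2i/LIF the rise of Dppa4 was 1.42 ± 0.07 at 12 h (2.67-fold, edgeR adjusted p = 5.44e-39), 1.55 ± 0.07 at 24 h (2.93-fold) and 1.03 ± 0.07 at 40 h (2.05-fold, 6.99e-27). In serum/LIF+2i it was 1.23 ± 0.07 at 12 h (2.34-fold, edgeR adjusted p = 1.81e-35), 1.20 ± 0.06 at 24 h and 0.81 ± 0.07 at 40 h (1.75-fold, 7.84e-22). Across the 8 group means of log2 CPM, Dppa2 and Dppa4 correlated at r = 0.955, a description over the 2 time courses that was not tested. Neither was among the 5 genes most like the other. Those reached at least 0.983 for Dppa2 and 0.981 for Dppa4.

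Between 12 and 24 h both genes differed by at most 0.13 on the log2 scale, and between 24 and 40 h both fell. From 12 to 24 h, 3 of the 4 members were called in 2i/LIF, where 35.1% of genes were, and 1 in serum/LIF+2i, where 48.4% were. Dppa2 was not called at this step in either medium (95% intervals −0.19 to 0.03 in 2i/LIF and −0.12 to 0.08 in serum/LIF+2i). Dppa4 was called higher in 2i/LIF by 0.13 ± 0.06 (edgeR adjusted p = 0.0478), a call that was lost with DESeq2 (adjusted p = 0.208) and without any single library of either time. In serum/LIF+2i its interval for that step was −0.13 to 0.08.

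From 24 to 40 h, 3 members were called in 2i/LIF, where 46.7% of genes were, and all 4 in serum/LIF+2i, where 50.5% were. Dppa2 fell by 0.60 ± 0.06 in 2i/LIF (edgeR adjusted p = 1.31e-15) and by 0.71 ± 0.05 in serum/LIF+2i (2.89e-23). Dppa4 fell by 0.52 ± 0.06 (edgeR adjusted p = 4.1e-14) and by 0.39 ± 0.05 (1.96e-10). Both stayed above their 0 h level at 40 h in both media.

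The ratio of Dppa2 to Dppa4, taken per kb in each library, was a further view of the pair. In 2i/LIF it was 0.67 and 0.68 in the libraries of 0 h, 0.82 and 0.77 at 12 h, 0.72 and 0.65 at 24 h, and 0.67 and 0.62 at 40 h. In serum/LIF+2i it was 0.36 and 0.43 at 0 h, 0.87 and 0.87 at 12 h, 0.91 and 0.84 at 24 h, and 0.72 and 0.69 at 40 h. The 0 h libraries of serum/LIF+2i lay below all others, with a mean of 0.398 ± 0.0516 (SD, n = 2) against 0.670 ± 0.0072 in 2i/LIF. Dppa4 exceeded Dppa2 per kb in every library, but not before division by length: at 12 and 24 h in serum/LIF+2i, CPM of Dppa2 was higher. The ratio is given as a description and was not tested.

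**Figure D2:**
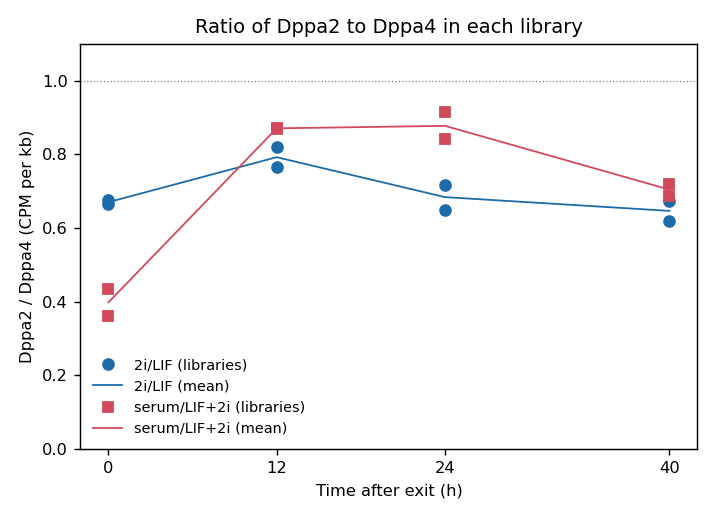
Ratio of Dppa2 to Dppa4 in CPM per kb (y axis) in each library against time after exit (h), with lines through group means and a dotted line at equal levels. The libraries of serum/LIF+2i at 0 h, at 0.36 and 0.43, lie below all others.

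Dppa3 fell at exit in both media. In 2i/LIF its libraries had 70.8 and 81.9 CPM at 0 h, 17.5 and 19.9 at 12 h, 9.58 and 10.0 at 24 h, and 10.6 and 10.5 at 40 h. Those of serum/LIF+2i had 36.9 and 36.7 CPM at 0 h, 4.32 and 3.30 at 12 h, 3.21 and 2.34 at 24 h, and 6.55 and 7.16 at 40 h. These last values rest on 23 to 76 counts per library from 12 h on in serum/LIF+2i, against 66 to 149 in 2i/LIF. The libraries of 0 h did not overlap those of any later time, and the 40 h libraries of serum/LIF+2i lay above those of 12 and 24 h. With 2 libraries a group, and the share of all genes with such an order not counted, this is a description and not a test.

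The fall of Dppa3 in 2i/LIF was −2.03 ± 0.10 at 12 h (4.08-fold lower, edgeR adjusted p = 1.04e-36), −2.96 ± 0.12 at 24 h (7.81-fold lower) and −2.86 ± 0.12 at 40 h (7.24-fold lower, 1.1e-46). From serum/LIF+2i it was −3.29 ± 0.16 at 12 h (9.77-fold lower, edgeR adjusted p = 1.13e-38), −3.73 ± 0.17 at 24 h (13.3-fold lower) and −2.43 ± 0.13 at 40 h (5.37-fold lower, 4.06e-35). Ordered by the size of the fall at 12 h, Dppa3 ranked 125th of 14288 genes in serum/LIF+2i and 374th in 2i/LIF.

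After 12 h the course of Dppa3 differed between the media. From 12 to 24 h it fell by 0.94 ± 0.16 in 2i/LIF (edgeR adjusted p = 2.73e-07), while the step in serum/LIF+2i was not called (−0.44 ± 0.27, 95% interval −0.98 to 0.10). From 24 to 40 h it rose in serum/LIF+2i by 1.31 ± 0.22 (2.47-fold, edgeR adjusted p = 3.32e-07) and was not called in 2i/LIF (0.11 ± 0.18, 95% interval −0.24 to 0.46). The difference between these later steps was itself called, at 1.20 ± 0.29 (edgeR adjusted p = 0.00145). Of all genes, 12.2% differed between the media in that step and 17.1% in the step before it, and of the members 2 and 0.

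Dppa5a fell at 40 h in both media, and already at 24 h in cells from serum/LIF+2i. In 2i/LIF it had 1633 and 1762 CPM at 0 h, 1857 and 1821 at 12 h, 1537 and 1584 at 24 h, and 749 and 782 at 40 h. The serum/LIF+2i libraries had 1507 and 1725 CPM at 0 h, 1489 and 1584 at 12 h, 1177 and 1163 at 24 h, and 709 and 723 at 40 h. The 40 h libraries were the lowest in both media. Those of 24 h lay below both 0 h libraries, by a small margin in 2i/LIF.

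At 40 h the fall of Dppa5a was −1.15 ± 0.05 in 2i/LIF (2.22-fold lower, edgeR adjusted p = 1.5e-19) and −1.17 ± 0.05 in serum/LIF+2i (2.26-fold lower, 6.59e-20). At 24 h it was −0.47 ± 0.05 in serum/LIF+2i (edgeR adjusted p = 2.31e-10) and −0.12 ± 0.05 in 2i/LIF (0.0208). The 24 h value in 2i/LIF lost its call with DESeq2 (adjusted p = 0.0885) and without replicate 2 of 0 h (−0.07, adjusted p = 0.254) or replicate 1 of 24 h (−0.10, 0.148).

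The 12 h values of Dppa5a were close to 0. In 2i/LIF the difference was 0.12 ± 0.05 (edgeR adjusted p = 0.036), a call lost with DESeq2 (adjusted p = 0.127) and without replicate 1 of 0 h (0.06, adjusted p = 0.359), replicate 1 of 12 h (0.101, 0.199) or replicate 2 of 12 h (0.13, 0.0887). In serum/LIF+2i it was −0.07 ± 0.05 and not called (95% interval −0.16 to 0.02), and it ranged from −0.17 without replicate 1 of 0 h (adjusted p = 0.000125) to 0.03 without replicate 2 of 0 h, since the libraries of that group differ, at 1507 and 1725 CPM. From 24 to 40 h Dppa5a fell by 1.03 ± 0.05 in 2i/LIF (edgeR adjusted p = 8.6e-18) and by 0.71 ± 0.05 in serum/LIF+2i (5.04e-14).

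**Figure D3:**
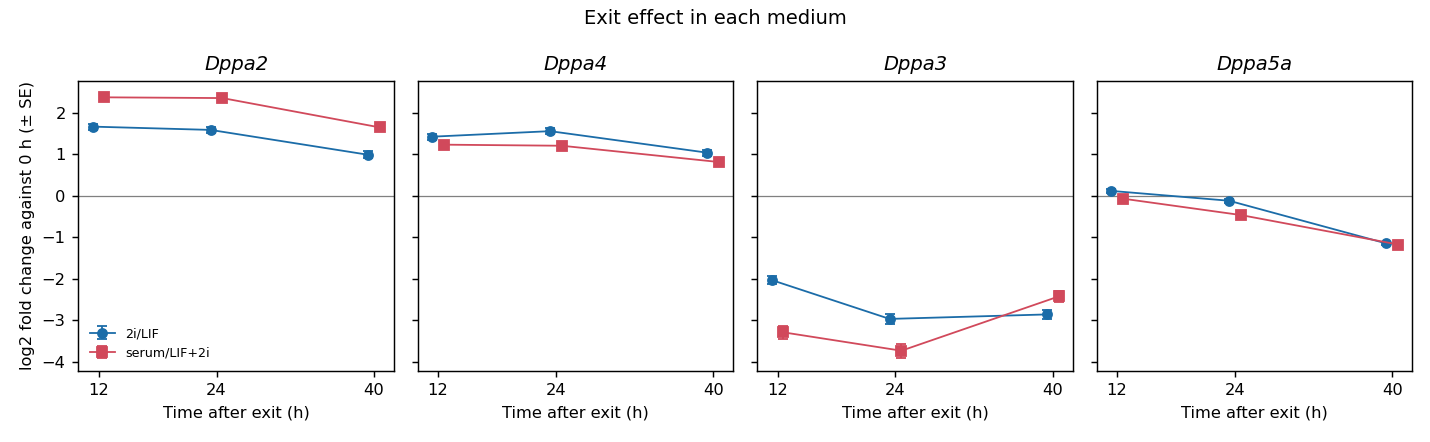
Log2 fold change against 0 h (y axis, with SE) of each Dppa gene at 12, 24 and 40 h (x axis), in blue for 2i/LIF and red for serum/LIF+2i. The effect on Dppa2 is larger from serum/LIF+2i at each time, and the lines of Dppa3 cross between 24 and 40 h.

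The order of the 8 groups differed from gene to gene. Overlap between groups of 2 libraries is given as a description, and its share over all genes was not counted. Dppa2 was highest at 12 and 24 h, where the libraries of neighbouring groups in the order overlapped, and lowest in serum/LIF+2i at 0 h. Dppa4 was highest in 2i/LIF at 24 h, and its 2 lowest groups, both at 0 h, overlapped. For Dppa3 no neighbouring groups overlapped, from 76.4 ± 7.81 CPM in 2i/LIF at 0 h to 2.78 ± 0.611 in serum/LIF+2i at 24 h. For Dppa5a the 4 groups from the second to the fifth overlapped their neighbours, 2i/LIF at 0 h, serum/LIF+2i at 0 h, 2i/LIF at 24 h and serum/LIF+2i at 12 h.

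The media were compared at each time, as serum/LIF+2i over 2i/LIF. Before exit, 2 of the 4 members were called, where 33% of genes were. Dppa2 was lower in serum/LIF+2i, with a log2 difference of −0.64 ± 0.10 (1.56-fold, edgeR adjusted p = 6.34e-08), and so was Dppa3, at −1.06 ± 0.09 (2.08-fold, 1.05e-18). The libraries of the media did not overlap for either. With 2 libraries a group, and the share over all genes not counted, that is a description and not a test. Dppa4 (0.12 ± 0.08, 95% interval −0.04 to 0.29) and Dppa5a (−0.07 ± 0.05, −0.16 to 0.02) were not called. For Dppa5a the call depended on the library: it was −0.18 without replicate 2 of serum/LIF+2i (adjusted p = 0.000135), −0.13 without replicate 1 of 2i/LIF (0.0374) and 0.02 with replicate 1 of serum/LIF+2i left out.

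At 12 h, 2 members were called, where 30.3% of genes were. Cells from serum/LIF+2i had less Dppa3, at −2.32 ± 0.18 (4.98-fold lower, edgeR adjusted p = 3.15e-21), and less Dppa5a, at −0.26 ± 0.04 (1.20-fold lower, 3.62e-05). At 24 h, 3 members were called, where 31.1% of genes were. The differences were −1.82 ± 0.23 for Dppa3 (3.54-fold lower, edgeR adjusted p = 2.71e-11), −0.42 ± 0.05 for Dppa5a (1.33-fold lower, 1.37e-08) and −0.23 ± 0.05 for Dppa4 (1.17-fold lower, 0.000287). Dppa2 was not called at 12 h (95% interval −0.04 to 0.17) or at 24 h (0.13 ± 0.05, adjusted p = 0.0655), where other scalings put it just past the threshold.

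At 40 h each member differed less between the media than at 24 h, and 1 was called, where 27.3% of genes were. Dppa3 was still lower in cells from serum/LIF+2i, at −0.63 ± 0.17 (1.54-fold, edgeR adjusted p = 0.00277). The 95% intervals were −0.10 to 0.14 for Dppa2, −0.22 to 0.01 for Dppa4 and −0.19 to 0.00 for Dppa5a. Dppa3 was the member called at all 4 times.

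**Figure D4:**
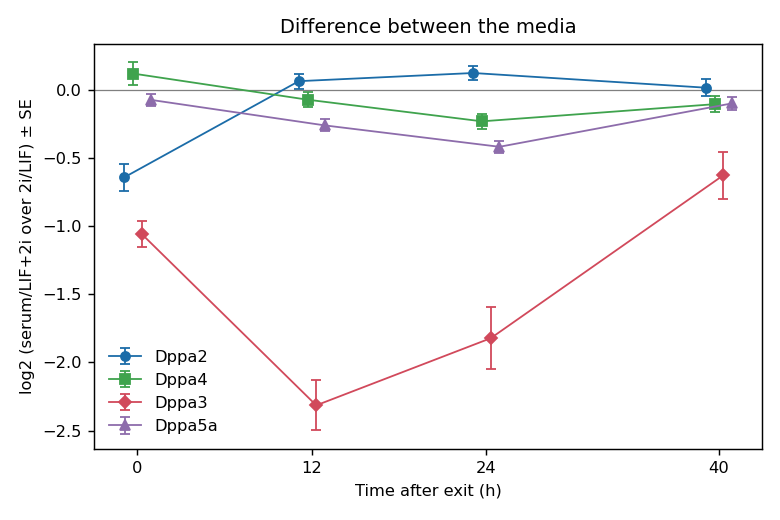
Log2 difference between the media, serum/LIF+2i over 2i/LIF (y axis, with SE), for each Dppa gene at each time after exit (h). Dppa3 lies below 0 at all times, furthest at 12 h (−2.32), and Dppa2 is below 0 at 0 h and near 0 afterwards.

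The interaction, the exit effect in serum/LIF+2i minus that in 2i/LIF, tested the difference itself. It was called for 2 members at 12 h, where 9.2% of genes were, for all 4 at 24 h, where 20.8% were, and for 1 at 40 h, where 27.6% were. Dppa2 rose more from serum/LIF+2i at all times, by 0.71 ± 0.11 at 12 h (edgeR adjusted p = 9.14e-07), 0.77 ± 0.11 at 24 h (3.02e-08) and 0.66 ± 0.12 at 40 h (2.63e-06). These values are of the same size as its difference between the media at 0 h, and share those 0 h libraries. Without any single library they lay between 0.57 and 0.82.

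Dppa3 fell more from serum/LIF+2i at 12 h, by −1.26 ± 0.22 (edgeR adjusted p = 4.63e-06). At 24 h the difference was −0.77 ± 0.25 (0.0179), a call lost with DESeq2 (adjusted p = 0.0706), without replicate 1 of 2i/LIF at 0 h (−0.65, 0.0671), without replicate 2 of 2i/LIF at 24 h (−0.73, 0.0627) and without the 24 h library 2 of serum/LIF+2i (−0.55, 0.23). At 40 h it was 0.43 ± 0.20 and not called (95% interval 0.04 to 0.82, adjusted p = 0.0911), and it was called without replicate 1 of 2i/LIF at 0 h (0.53, adjusted p = 0.046).

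Dppa4 rose less from serum/LIF+2i at 24 h, by −0.35 ± 0.10 (edgeR adjusted p = 0.0041), a call lost without the 0 h library 1 of serum/LIF+2i (−0.24, adjusted p = 0.132). At 12 h (95% interval −0.39 to 0.00) and 40 h (−0.42 to −0.03, adjusted p = 0.081) it was not called, but at 40 h it was without the 0 h library 2 of serum/LIF+2i (−0.33, adjusted p = 0.0227). Dppa5a fell more from serum/LIF+2i at 24 h, by −0.34 ± 0.06 (edgeR adjusted p = 0.000134), which was −0.23 without the 0 h library 2 of serum/LIF+2i. Its 12 h difference of −0.19 ± 0.06 was not called (adjusted p = 0.0604), but was without the 0 h library 2 of 2i/LIF (−0.24, 0.0113), the 0 h library 1 of serum/LIF+2i (−0.28, 4.35e-06) or the 12 h library 2 of serum/LIF+2i (−0.24, 0.0114). At 40 h the interval was −0.16 to 0.11.

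Genes next to the members were described to see whether a member moved with its neighbours. Of 18 nearest protein-coding genes in RefSeq, up to 3 on each side of a member, 10 had enough counts to be tested. At 40 h, 1 was higher and 7 lower in 2i/LIF, where 68.8% of all genes were called, and 2 were higher and 6 lower in serum/LIF+2i, where 70.5% were. These shares are near those of all genes. Morc1, a silencer of transposons in the male germline and the nearest tested gene beyond Dppa2 at 111.7 kb, was in 2i/LIF at 213 ± 1.10 CPM before exit, 315 ± 2.16 after 12 h and 86.2 ± 2.13 after 40 h (SD, n = 2). It rose by 0.56 ± 0.04 at 12 h (edgeR adjusted p = 1.59e-22) and fell by 1.31 ± 0.05 at 40 h (1.41e-47). It thus ended below its 0 h level, where Dppa2 and Dppa4 ended above theirs.

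Ooep, a maternal KH-domain gene 8.704 kb from Dppa5a, also fell by 40 h in both media. In 2i/LIF it was at 92.7 ± 2.36 CPM at 0 h and 40.3 ± 4.26 at 40 h (SD, n = 2), a change of −1.20 ± 0.08 (edgeR adjusted p = 2.94e-30), and in serum/LIF+2i it was −1.96 ± 0.06 (9.52e-56), against −1.17 ± 0.05 for Dppa5a. The interaction at 40 h was called for Ooep (−0.76 ± 0.10, edgeR adjusted p = 9.26e-10) and not for Dppa5a, and before exit Ooep was higher in serum/LIF+2i by 0.61 ± 0.06 (7.1e-16). Of the other tested neighbours of Dppa5a, Ddx43 was not called at 40 h in either medium, and Cgas was lower in 2i/LIF (−1.15 ± 0.27, edgeR adjusted p = 8.76e-05) and not called in serum/LIF+2i (95% interval −0.64 to 0.36). The difference between the media was itself called for Cgas, at 1.00 ± 0.37 (edgeR adjusted p = 0.0308). Around Dppa3, the pluripotency factor Nanog, 77.22 kb away, fell at 40 h, with log2 changes of −4.58 ± 0.05 in 2i/LIF (edgeR adjusted p = 3.36e-103) and −5.69 ± 0.06 in serum/LIF+2i (2.97e-113). The changes were −2.49 ± 0.04 and −2.79 ± 0.04 for the glucose transporter gene Slc2a3, and −0.62 ± 0.05 and −0.59 ± 0.05 for Gdf3, a TGF-beta family ligand gene 16.34 kb from Dppa3. Foxj2 was also lower in both (−0.58 ± 0.24 and −1.03 ± 0.23). Apobec1, 23.4 kb from Dppa3, was not called in 2i/LIF (0.18 ± 0.18) and was higher in serum/LIF+2i (0.59 ± 0.15, edgeR adjusted p = 0.000213). Its interaction at 40 h was not called (0.41 ± 0.23). Nanog and Slc2a3 went on falling from 24 to 40 h, when Dppa3 did not.

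**Figure D5:**
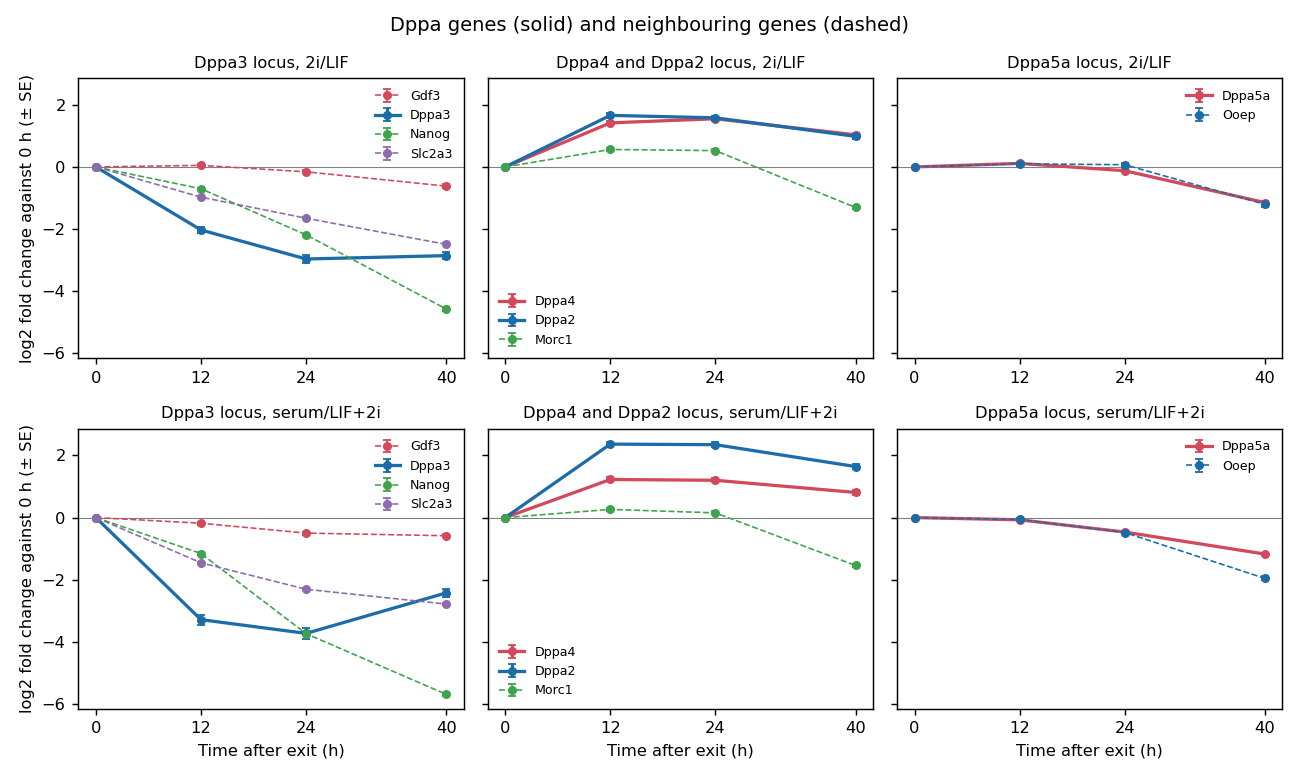
Log2 fold change against 0 h (y axis, with SE) over time after exit (h) for the Dppa genes (solid) and selected neighbours (dashed), with 2i/LIF above and serum/LIF+2i below. Morc1 turns below 0 at 40 h while Dppa2 and Dppa4 stay above 0, and at 40 h in serum/LIF+2i Ooep lies at −1.96 and Dppa5a at −1.17.

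Groups of genes tied to the members' known roles are given as counts at 40 h, in 2i/LIF and then in serum/LIF+2i, beside the shares called over all genes, 68.8% and 70.5%, and the all-gene medians near 0. Of 15 genes of the 2-cell embryo with enough counts, 13 and 15 were higher and 0 lower. The medians were 2.08 and 3.98, or 1.45 and 3.07 with genes at or under 3 counts in every library of a group set to that floor. In 2i/LIF 7 of the 15, and in serum/LIF+2i 14, were at that floor in a single group of the comparison. Such genes passed the count filter only through groups where they were higher, so their direction is a description, not a test. Many are near-identical copies, so single genes are uncertain. Zscan4d, a telomere-associated gene of this stage, rose from 1.57 ± 0.710 CPM to 10.9 ± 3.76 in 2i/LIF (SD, n = 2), while the cells from serum/LIF+2i had 0.294 ± 0.208 CPM at 0 h and 18.9 ± 0.127 at 40 h. The summed CPM of 21 such genes at 0 h was 11.2 to 12.8 in 2i/LIF and 3.08 to 4.26 in serum/LIF+2i, and at 40 h 37.4 to 54.8 and 87.0 to 88.5. Between the media, serum/LIF+2i over 2i/LIF, 0 of the 15 were higher at 0, 12 and 24 h, and 5, 10 and 7 were lower, where 33%, 30.3% and 31.1% of all genes were called. At 40 h 12 were higher and 0 lower, where 27.3% of all genes were called.

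Of 18 tested germline genes known to be held silent by DNA methylation, 12 were higher and 3 lower in 2i/LIF, and 15 were higher and 0 lower in serum/LIF+2i, with medians of 1.04 and 1.70, or 0.86 and 1.70 with genes at the floor set to it. Mael, of the piRNA pathway, rose by 3.64 ± 0.22 and 4.44 ± 0.19 (edgeR adjusted p = 5.92e-32 and 1.38e-44), and the germ cell helicase gene Ddx4 by 1.99 ± 0.19 and 2.95 ± 0.17. Dazl, a germ cell RNA-binding protein gene, went the other way in 2i/LIF, where it fell by 1.94 ± 0.11, and rose in serum/LIF+2i by 0.90 ± 0.13.

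Of 12 DNA methylation enzymes and readers, 5 were higher and 5 lower in 2i/LIF and 6 higher and 5 lower in serum/LIF+2i, with medians of 0.02 and 0.20. Uhrf1, whose protein Dppa3 binds, fell by 0.71 ± 0.04 and 0.85 ± 0.04 (edgeR adjusted p = 2.08e-37 and 1.56e-44). The de novo methyltransferase genes Dnmt3a and Dnmt3b rose, Dnmt3a by 4.14 ± 0.05 and 4.26 ± 0.05 and Dnmt3b by 4.11 ± 0.05 and 3.43 ± 0.04. Dnmt3a overlaps an antisense gene in the annotation, and whether reads were counted by strand is not given in the sources used here. Zfp57, which protects imprints, fell by 1.16 ± 0.04 and 1.62 ± 0.04.

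Of 9 primordial germ cell markers, the cells in which Dppa3 is known as a marker, 0 were higher and 8 lower in 2i/LIF and 1 was higher and 8 lower in serum/LIF+2i, with medians of −2.65 and −2.75. In 2i/LIF 1 of the 9 was at the floor of 3 counts in a single group, so its direction is a description, not a test. The changes were −3.41 ± 0.06 and −3.15 ± 0.05 for the receptor gene Kit, and −7.27 ± 0.19 and −7.91 ± 0.18 for the transcription factor gene Prdm14. Of 6 tested genes of the KH family, kin to Dppa5a, or of the maternal subcortical complex, 1 was higher in each medium and 5 and 4 were lower. Their medians were −4.06 and −3.13, or −2.16 and −1.27 with the floor. At 40 h against 0 h, 2 of the 6 in 2i/LIF were at that floor in a single group. In serum/LIF+2i 1 was, and 1 was at the floor in both groups. These passed the count filter only through groups where they were higher, so their direction is a description, not a test. The higher gene in both media was Zbed3 (0.949 and 1.565), whose span overlaps another counted gene. Khdc3 was at 65.0 ± 5.40 CPM in 2i/LIF at 0 h and had 3 and 5 counts in the libraries of 40 h.

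The Pramel genes, Calcoco2 and Dppa1, first grouped like the members by a pattern like that of Oct4, had 3 of 6 tested. All 3 were lower in both media, with medians of −6.90 and −6.10, or −3.38 and −4.73 with the floor. At 40 h, 2 of the 3 were at that floor in each medium. These passed the count filter only through groups where they were higher, so their fall is a description, not a test. Calcoco2, whose span overlaps another counted gene, went from 137 to 3.77 CPM in 2i/LIF. Of 15 transcription factors of the pluripotency network, 0 were higher and 14 lower in both media, with medians of −4.58 and −3.87, and Pou5f1 itself was not called (95% intervals −0.08 to 0.06 and −0.13 to 0.00). All 11 formative markers were higher in both media, with medians of 4.11 and 3.24, or 4.11 and 2.99 with the floor of 3 counts. In 2i/LIF 1 of the 11, and in serum/LIF+2i 2, were at that floor in a single group of the comparison. These passed the count filter only through groups where they were higher, so their rise is a description, not a test. Dppa2 and Dppa4 were thus higher at 40 h while 14 of the 15 pluripotency factors were lower, as were Dppa3 and Dppa5a.

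The genes with the course most like each member were ranked by Pearson's r over the 8 group means of log2 CPM, among the 10768 genes whose mean reached 5 CPM. These values are a description over the 2 time courses and were not tested. For Dppa2 they were Nufip2 (r = 0.989), Gfod1, Trim44, Cxxc1 and Pfkm, and for Dppa4 Kndc1 (0.989), A930004D18Rik, Asxl1, Slc7a3 and G3bp2. Slc7a3, a cationic amino acid transporter gene whose span overlaps another counted gene, went from 142 to 483, 577 and 342 CPM in 2i/LIF. For Dppa3 they were Bid (0.990), Pdzrn4, Sdc2, Rasgrp1 and Tpd52l1, and for Dppa5a Zswim1 (0.996), Sox15, Irak3, Brms1l and Phf11d. Rasgrp1 went from 46.5 to 6.7 CPM at 12 h in 2i/LIF, and Sox15, a SOX-family factor gene, from 21.6 to 5.0 CPM at 40 h. The spans of Sox15, Pfkm, A930004D18Rik, Pdzrn4 and Tpd52l1 also overlap another counted gene. With Spearman's rho over the 16 libraries in place of r, 0 of the 5 genes for Dppa2, 1 each for Dppa4 and Dppa5a, and 2 for Dppa3 were again in the top 5.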

How the data were processed

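RNA was taken up in TRIzol and made into stranded poly(A) libraries, per the labels. The authors deposited 1 table of raw counts per gene, with Entrez identifiers, symbols and gene lengths, per the file headers. The submitters' processing notes name fastp, STAR, featureCounts and mm10, with no versions. Strand, multimapping and read length settings are not given in the sources used here. Groups and replicates came from the titles, which list 12 h libraries for both media although the protocol names other times for cells from serum. In edgeR 4.0.16 (R 4.3.3), filterByExpr (minimum count 10, minimum total 15) kept 14288 of 27179 genes. Scaling used the trimmed mean of M values (TMM). The 16 libraries were fitted in 1 model with a term per group (8 residual degrees of freedom, common biological coefficient of variation 3.19%), and tested with the robust quasi-likelihood F test in 19 comparisons, with Benjamini-Hochberg adjustment over all genes. SE were derived from the F statistic. The spread estimated for a gene borrows from the other genes, so p-values rest on more than the 8 residual degrees of freedom. The 1049 rows without a symbol were kept under their identifiers. At these depths 3 counts, the limit that a count of 0 allows, correspond to 0.2585 to 0.517 CPM, and this covers counting error only. No replicate pair agreed within sampling noise: the chi-square per degree of freedom was 1.39 to 5.42, and 1.24 to 1.66 without 8 ribosomal RNA rows.

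Named were the 4 members, all rows starting with Dppa, up to 4 genes per list with the smallest adjusted p at 40 h, the 5 genes most like each member and the 3 nearest protein-coding genes on each side. The members and lists were chosen with earlier results of these data known. The procedure was also run on simulated data, in which far fewer genes changed than were called at exit, and in a single group. That run cannot show how well the scaling held at exit. Coordinates are RefSeq GRCm38.p6, and coding sequences GENCODE M21 of the same build. Alternatives were DESeq2 1.42.0, other scalings and filters, a minimum fold change, a replicate term, and each library left out.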

Additional observations from a re-analysis of the deposited data

Results flagged for a closer look

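The exit effect of a Dppa gene differed between the media in 9 tests of the difference itself, out of those of 4 genes at 3 times and in both steps (edgeR's quasi-likelihood test, Benjamini-Hochberg adjustment), each given as serum/LIF+2i minus 2i/LIF on the log2 scale. Dppa2 gave 0.71 at 12 h, 0.77 after 24 h and 0.66 after 40 h. For Dppa3 it was −1.26 at 12 h and −0.77 at 24 h, and 1.20 in the step from 24 to 40 h. For Dppa4 it was −0.35 at 24 h. For Dppa5a it was −0.34 at 24 h and 0.32 in the step from 24 to 40 h. Over all genes, 9.2% differed at 12 h, 20.8% at 24 h, 27.6% at 40 h, 17.1% in the step from 12 to 24 h and 12.2% in that from 24 to 40 h. Groups of 2 libraries were not tested for outliers.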

How the results depend on the processing

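Of 1144 values of members under alternatives, 1066 kept their direction and side of the threshold, 55 lost a call, 23 gained one and 0 called values reversed. The cause of the changes below was not tested. A test against a minimum absolute log2 fold change of 1 ended 32 calls of members, by its construction. Among the exit effects these were Dppa2 (0.98) and Dppa4 (1.03) at 40 h in 2i/LIF, Dppa4 at 40 h (0.81) and Dppa5a at 24 h (−0.47) in serum/LIF+2i, and Dppa5a at 12 h (0.12) and 24 h (−0.12) in 2i/LIF. Among the media they were Dppa2 (−0.64) and Dppa3 (−1.06) at 0 h, Dppa5a at 12 h (−0.26), Dppa4 (−0.23) and Dppa5a (−0.42) at 24 h and Dppa3 at 40 h (−0.63), and among the interactions Dppa2 (0.71, 0.77 and 0.66), Dppa3 (−1.26 and −0.77), Dppa4 (−0.35) and Dppa5a (−0.34). The members' called steps and step differences lost their calls too, from 12 to 24 h those of Dppa3 (−0.94) and Dppa4 (0.13) in 2i/LIF and of Dppa5a in both media (−0.24 and −0.39), and from 24 to 40 h those of Dppa2 (−0.60 and −0.71), Dppa4 (−0.52 and −0.39) and Dppa5a (−1.03 and −0.71) in both media, of Dppa3 in serum/LIF+2i (1.31), and the differences between the media for Dppa3 (1.20) and Dppa5a (0.32).

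With DESeq2, the calls of Dppa3's 24 h interaction (−0.76) and of Dppa5a at 12 h (0.12) and 24 h (−0.12) in 2i/LIF were lost. Dppa5a also lost its 12 h call with a mean of at least 5 CPM (0.11) and its 24 h call with library size only (−0.10) or totals without ribosomal RNA rows (−0.10). Dppa2 at 24 h between the media was called with DESeq2 size factors (0.13), library size only (0.15), a mean of at least 5 CPM (0.14) and only the groups compared (0.14), Dppa5a at 40 h between the media with only the groups compared (−0.11), and Dppa5a's 12 h interaction without a filter (−0.18) and without robust estimation (−0.19). The log2 ratio of Dppa2 to Dppa4 without division by length turned to 0.003 in 2i/LIF at 12 h and to 0.14 and 0.15 in serum/LIF+2i at 12 and 24 h. DESeq2 called fewer genes, by over 1.5 times: 574, 1789 and 2419 in the interactions at 12, 24 and 40 h against 1315, 2966 and 3940, 3115, 2668, 2729 and 2010 between the media against 4710, 4334, 4439 and 3897, and 1240 and 783 in the differences between the media in the steps from 12 to 24 h and from 24 to 40 h against 2440 and 1743. The minimum fold change left 831 to 3114 genes in the exits, 240 to 778 in the steps, 44 to 166 between the media and 8 to 122 in the interactions, and 2240 were called between the media at 40 h without 2i/LIF replicate 1.

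With each library left out, values ranged from −1 to −0.55 for Dppa3's 24 h interaction and 0.32 to 0.53 at 40 h, from −0.44 to −0.24 for Dppa4's 24 h interaction and −0.33 to −0.12 at 40 h, and for Dppa5a from 0.06 to 0.17 at 12 h and −0.18 to −0.068 at 24 h in 2i/LIF, from −0.17 to 0.034 at 12 h in serum/LIF+2i, from −0.28 to −0.082 for the 12 h interaction and from −0.18 to 0.024 between the media at 0 h. A group left with 1 library was assumed to vary like the others.

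Deviations of same-numbered libraries correlated between −0.023 and 0.0331 over 28 pairs of groups, which gives no sign of pairing by replicate number. Without the ribosomal RNA rows, replicates differed by little beyond counting noise, so a weak pairing could be missed by this. With the replicate block, Dppa5a was called in the 12 h interaction (−0.19), between the media at 40 h (−0.10) and in the difference of the 12 to 24 h steps (−0.16), and the block changed no other call of a member. Depth limits Dppa3 most, with 23 counts in its lowest library.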
